A study of Mus musculus with 10 samples.

Results

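The cytosolic ribosomal protein genes were followed in ventricular RNA of mice that carry one of a pair of alpha-tropomyosin transgenes and of nontransgenic controls. The members were all genes whose symbol begins with Rpl or Rps followed by a digit, together with Rplp0, Rplp1, Rplp2 and Rpsa, without the Rps6k kinases and Rps19bp genes. Of 12393 genes that an Affymetrix probe set measured under a single symbol, 49 met this rule, on 101 probe sets. They comprised 22 genes of the large subunit, 20 of the small subunit, 6 paralogs of a ribosomal protein gene (Rpl3l, Rpl7l1, Rpl22l1, Rpl39l, Rps4l and Rps27l) and 1 symbol of a pseudogene, Rps15a-ps6. For each gene the brightest of its probe sets was used.

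The arrays comprised 3 of alpha-TM175 ventricles (TM175), 4 of alpha-TM180 ventricles (TM180) and 3 of nontransgenic ventricles (NTG). From background knowledge both lines carry mutant alpha-tropomyosin in cardiac muscle under a cardiac myosin promoter, TM175 with the milder and TM180 with the more severe hypertrophy. TM175 array 3, TM180 array 4 and NTG array 3 each carried an extract pooled from 20 hearts, and the other 7 arrays carried 1 heart each. The labels give no treatment, and state neither the strain, the sex, the age nor whether a pool contained the hearts measured alone. All groups shared the RNA extraction and the labelling from the 3′ end. Cardiomyocyte markers were measured for 10 of 10 genes in all arrays, with a summed intensity of 53140 to 54311 in TM175, 50981 to 55866 in TM180 and 54610 to 58792 in NTG.

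The ribosome is built from ribosomal RNA and one copy each of most ribosomal proteins, so cells make these proteins in matched amounts. Many ribosomal protein messages begin with a run of pyrimidines at the 5′ end, the 5′ terminal oligopyrimidine or TOP motif, through which mTORC1 signalling governs their translation. Growth of the heart in hypertrophy involves an increase in ribosome content, and ribosomal RNA synthesis and the translation of these messages are known to take part in it. Rpl3l is an exception among the members: it is a paralog of Rpl3 expressed in heart and skeletal muscle that takes the place of Rpl3 in muscle ribosomes.

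The 5′ ends are shown here because the TOP motif is the sequence feature for which this family is known and played no part in choosing the members. RefSeq start sites on build GRCm38.p6 were matched for 42 of the 49 members, on 50 start sites. The genes without an entry were Rpl7, Rpl8, Rps14, Rps15a-ps6, Rps20, Rps29 and Rps4l. The windows below run from 10 bases before the annotated start through the first 20 bases of the transcript, and capitals mark the longest run that begins with C and goes on with at least 4 bases that are C or T.
Rpl7a, chr2:26910797-26910826, plus strand: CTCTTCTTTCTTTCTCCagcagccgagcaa
Rpl35, chr2:39005112-39005141, minus strand: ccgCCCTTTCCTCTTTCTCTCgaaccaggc
Rpl38, chr11:114668570-114668599, plus strand: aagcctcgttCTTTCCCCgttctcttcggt
Rps18, chr17:33955646-33955675, minus strand: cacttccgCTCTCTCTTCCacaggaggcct
Rps10, chr17:27635225-27635254, minus strand: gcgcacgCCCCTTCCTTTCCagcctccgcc
Rpl22l1, chr3:28805498-28805527, plus strand: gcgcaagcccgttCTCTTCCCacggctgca
Rpl3l, chr17:24727816-24727845, plus strand: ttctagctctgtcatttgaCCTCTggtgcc
Rpl3l, chr17:24732675-24732704, plus strand: caacagctacagtgccccaaatgtcctgaa
Rps3a1, chr3:86142649-86142678, minus strand: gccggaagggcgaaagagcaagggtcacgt

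The search covered the 16 words from CCCCC to CTTTT whose C lay within 10 bases of the start on either side. Such a run was found on the transcript strand at 28 of the members' 50 start sites, or 56.0%, against 29.7% of all 32851 start sites in the table. On the other strand the same words stood at 22.0% of the members' sites, against 33.8% of all sites. Of the members' genes, 27 of 42, or 64.3%, held a run at 1 or more of their start sites, against 33.3% of all 27025 genes. Rpl38 and Rps18 had it at or next to the annotated start. The first Rpl3l start site had only a 5-base run that began at the tenth base of the transcript, and the second had none. A match describes the letters in this window and says nothing of translation.

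Against NTG, ribosomal protein messages in TM175 lay close to the control level, and none was called. Over the 49 members the median log2 difference of TM175 minus NTG was -0.06, against 0.04 over all 22626 probe sets tested. Over the 25 genes with a probe set that bears no mark it was 0.08. In 18 genes that was also the brightest probe set, but some others were dim. The unmarked probe set of Rpl41 read 10.0 to 12.6, where its brightest read 3939 to 4943. That of Rps20 read 48.0 to 62.9, against 897.1 to 1755. The median over the 49 members was 0.05 after the arrays were normalized by quantiles once more. It was -0.03 without TM175 array 1, -0.02 without TM175 array 2, -0.17 without TM175 array 3, -0.13 without NTG array 2 and -0.04 without NTG array 3. Of the members 12 lay above 0 and 37 below, while 57.9% of all probe sets lay above 0. With limma and Benjamini-Hochberg adjustment over all probe sets, 0 members had an adjusted p under 0.05, where 0.00884% of all probe sets did, and with extract type (pooled or individual) in the model also 0, where 0.862% did. At an unadjusted p under 0.05 the count was 1 of 49, or 2.04%, against 13.0% of all probe sets. With arrays weighted by their own spread 10 members were called, where 23.7% of all probe sets were. The subunits had like values: their medians were -0.06 over 22 genes and -0.06 over 20 genes.

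In TM180 most levels were again close to the control, with Rpl3l apart. The median log2 difference of TM180 minus NTG was 0.04 over the 49 members, against -0.01 over all probe sets, and leaving out NTG array 2 made it -0.03, NTG array 3 0.08 and TM180 array 3 0.06. With array weights it was -0.004. Of the members 34 lay above 0 and 15 below, while 48.5% of all probe sets lay above 0. In the genotype model 0 members were called, where 0.504% of all probe sets were, and the count at an unadjusted p under 0.05 was 1 member, 2.04% against 9.34%. With extract type in the model 1 member was called lower, Rpl3l, where 2.01% of all probe sets were called and 0.539% were called lower. With arrays weighted by their own spread 1 member was called, where 3.33% of all probe sets were. The medians were 0.06 for the large subunit and 0.03 for the small subunit.

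The 95% intervals bound what these arrays could have missed. In TM175 against NTG the interval of 42 of the 49 members stayed inside a 1.5-fold change in either direction, and in TM180 against NTG that of 43 did. In TM175 the 7 members whose interval reached further were Rpl22l1, Rpl27a, Rpl3l, Rpl8, Rps20, Rps4l and Rpsa. In TM180 the 6 were Rpl10a, Rpl22l1, Rpl3l, Rps20, Rps4l and Rpsa. Of the 49 members 7 read under 100 in every array, and for so dim a probe set a narrow interval need not bound the message. An adjusted p over the threshold does not show that levels were equal.

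**Figure D1:**
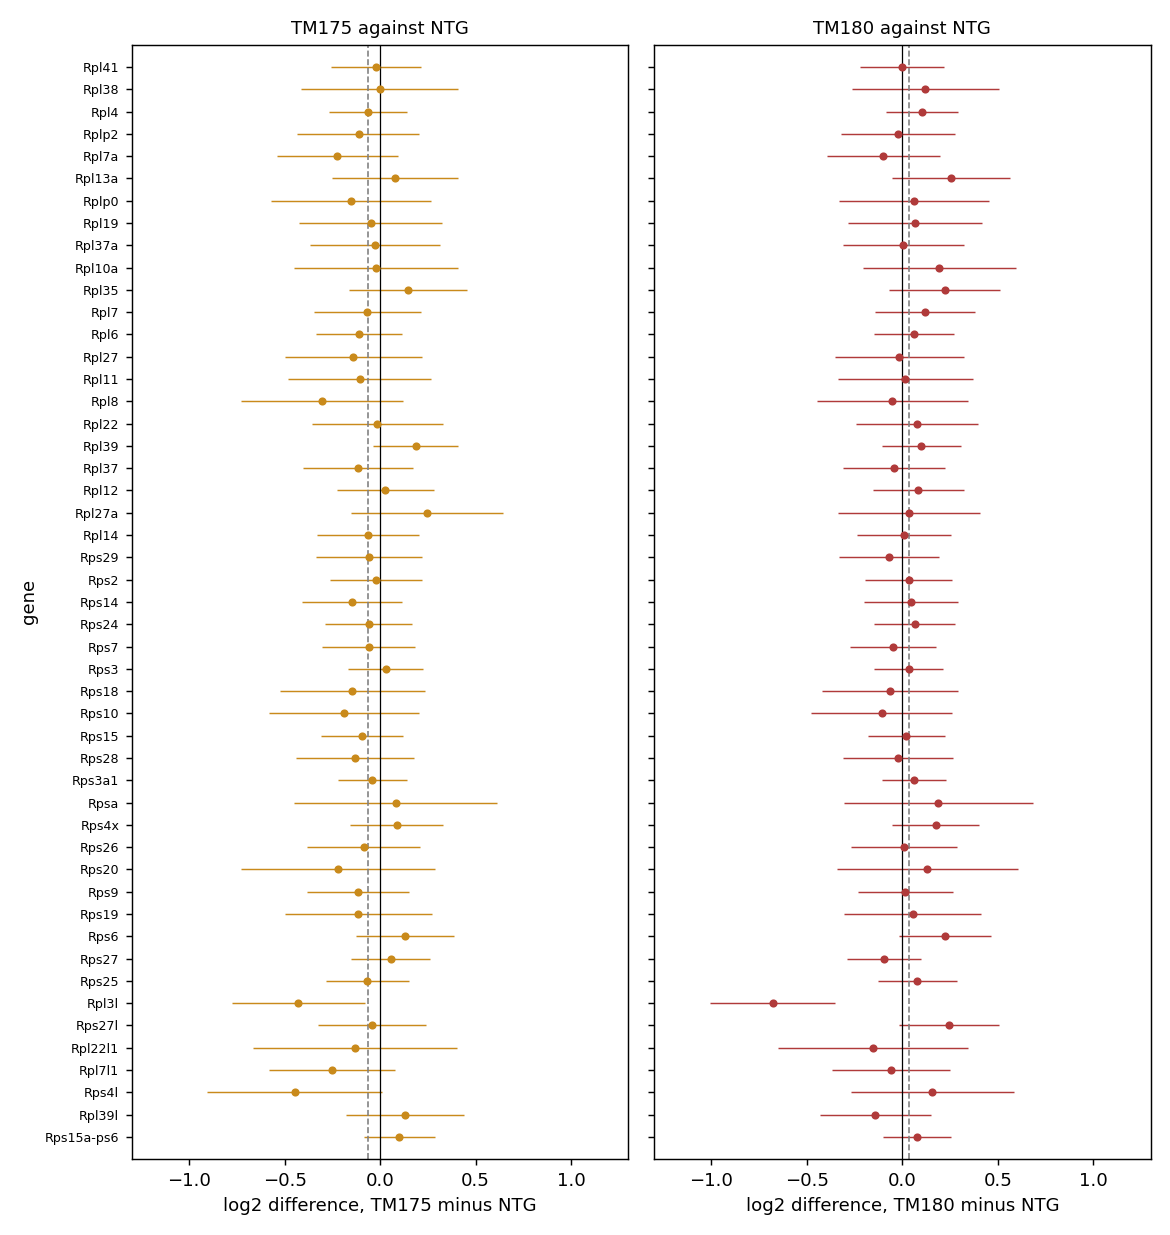
Log2 difference of each ribosomal protein gene with its 95% interval from limma, TM175 minus NTG on the left and TM180 minus NTG on the right, with genes of the large subunit, the small subunit, the paralogs and the pseudogene symbol from top to bottom; the solid line is 0 and the dashed line the median of the 49 genes. The medians stand at -0.06 and 0.04, and Rpl3l, at -0.43 and -0.68, is the gene whose interval lies wholly below 0 in both panels.

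Rpl3l, the muscle paralog of Rpl3, read lower in every array of both lines than in any control array, and passed the test in TM180 with extract type in the model. Its intensity was 762, 759.6 and 712.6 in TM175, and 812, 542.9, 678.1 and 513.1 in TM180, against 1076, 1008 and 926.4 in NTG. All 7 transgenic arrays lay below all 3 NTG arrays, and the pooled array was the lowest of each group. The means were 745 ± 28 in TM175 (SD, n = 3), 637 ± 137 in TM180 (SD, n = 4) and 1003 ± 75 in NTG (SD, n = 3).

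In TM180 the level of Rpl3l was 0.625 times that in NTG (95% interval 0.498 to 0.784), a log2 difference of -0.68 (SE 0.15). The unadjusted p was 0.000855 and the limma adjusted p was 0.0841, so it missed the threshold in the genotype model. Once extract type entered the model, the estimate was -0.70 (SE 0.13) and the limma adjusted p was 0.0149. In TM175 the level was 0.743 times that in NTG (95% interval 0.583 to 0.947), with a log2 difference of -0.43 (SE 0.16), an unadjusted p of 0.0211 and a limma adjusted p of 0.31, or 0.114 with extract type in the model. The 2 lines did not differ beyond their spread: TM180 minus TM175 was -0.25 (95% interval -0.58 to 0.08), with a limma adjusted p of 0.457.

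The direction was the same within each extract type. Among individual extracts Rpl3l was -0.64 in TM180 and -0.45 in TM175 relative to NTG on the log2 scale, and between the pools, with 1 array a genotype and no test, -0.85 and -0.38. The exact two-sided permutation test of Rpl3l gave p = 0.0571 for TM180 against NTG, the smallest p that 4 against 3 arrays allow, and p = 0.1 for TM175 against NTG, likewise the smallest for 3 against 3. TM180 against TM175 gave an exact permutation p of 0.343, and after adjustment over the 3 genotype pairs the exact p of both transgenic lines against NTG was 0.15. The call in TM180 with extract type in the model held in 8 of 10 fits that left out 1 array each, and was lost without TM180 array 4 or without NTG array 3. In the genotype model 1 of 10 such fits passed, the one without TM180 array 1, with a limma adjusted p of 0.0264.

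**Figure D2:**
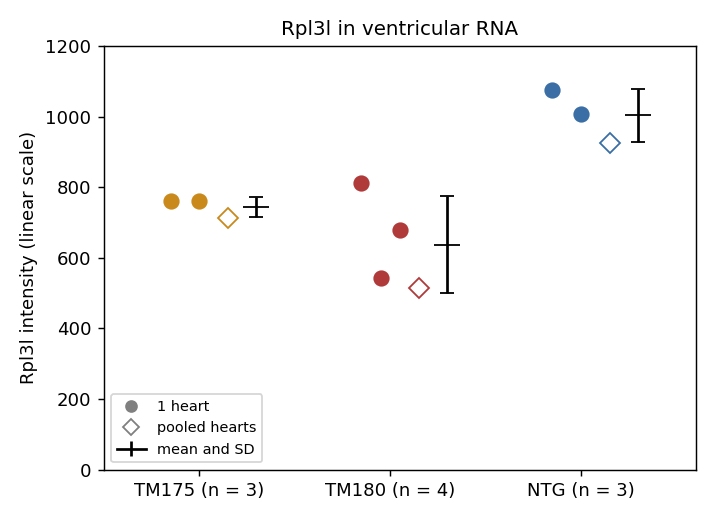
Intensity of the Rpl3l probe set on a linear scale in TM175, TM180 and NTG ventricles; filled circles are extracts of 1 heart, open diamonds are pools of 20 hearts, and black bars are the mean and SD of all arrays of the group. The transgenic arrays lie between 513.1 and 812, all below the NTG arrays at 926.4 to 1076.

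Rpl3l is measured by 1 probe set that carries no mark for shared targets. No probe set carried Rpl3 alone, so the balance of the paralog pair was not measured here. Fibroblast markers, 8 of 8 measured, summed to 6639 to 10284 in TM175, 8410 to 12868 in TM180 and 4602 to 6906 in NTG, while cardiomyocyte markers summed to the ranges given above. In tissue RNA fewer cells of a type and less RNA per cell cannot be told apart, and the part of cell composition in the Rpl3l difference was not tested. The cardiomyocyte sums of TM175 lay wholly but narrowly below those of NTG, at no more than 54311 against no less than 54610. Those of TM180 overlapped NTG. The fibroblast sums of TM180 lay wholly above those of NTG, and those of TM175 overlapped NTG. Endothelial markers, 7 of 7 measured, lay wholly above NTG in both lines. They summed to 2333 to 3048 in TM175, 2419 to 2671 in TM180 and 2166 to 2307 in NTG. Red blood cell markers, 2 of 6 measured, lay above NTG in TM175 and below it in TM180.

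The other paralogs were described beside the gene they resemble. Rps4l, a paralog of Rps4x, had 28.9, 47.3, 32.4 and 43.9 in TM180, and 23.2, 21.0 and 30.3 in TM175, against 37.4, 28.1 and 35.6 in NTG. TM175 arrays 1 and 2 were the lowest of all 10 arrays, TM180 arrays 2 and 4 the highest, and the groups overlapped. The log2 difference of TM180 minus TM175 was 0.61 (SE 0.19), with an unadjusted p of 0.0101 and a limma adjusted p of 0.306, or 0.0798 with extract type in the model. Rps4x itself, the X-linked small subunit gene, stood at 0.09 between the lines.

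Rps27l, a paralog of Rps27 known as a target of p53, had 793.1, 654.3, 843.3 and 880.7 in TM180 and 655.2, 575.3 and 714.3 in TM175, against 656.9, 640.6 and 699.5 in NTG. Of its TM180 arrays 3 lay above every array of the other groups, and the array at 654.3 lay within them. Its log2 difference was 0.24 for TM180 minus NTG (limma adjusted p = 0.588) and 0.29 for TM180 minus TM175 (limma adjusted p = 0.361). The other probe sets of Rps27l stood at 0.33 and 0.65 for TM180 minus TM175. Rps27, which lies in the small subunit, was at -0.10 and -0.15 in the same comparisons.

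Rpl22l1, a paralog of the RNA-binding protein gene Rpl22, was at -0.13 in TM175 (95% interval -0.67 to 0.40) and -0.15 in TM180 (-0.65 to 0.35) relative to NTG. Among individual extracts it was at -0.28 in TM175, with a limma unadjusted p of 0.0485 and an adjusted p of 0.336. It did not stand out there. Rps4l (-0.555), Rps20 (-0.461), Rpl3l (-0.453), Rpl8 (-0.446) and Rpl7l1 (-0.374) lay further below NTG. Their limma unadjusted p-values were 0.0134 to 0.0362, and none had an adjusted p under 0.05. Over all arrays Rpl22 was at -0.01 in TM175 and 0.08 in TM180. Rpl7l1, a paralog of Rpl7, was at -0.25 in TM175 and -0.06 in TM180, and Rpl7 at -0.07 and 0.12. Rpl39l, a paralog of Rpl39 known from testis, was at 0.13 in TM175 and -0.14 in TM180, and its intensity of 11.8 to 18.1 lay near the bottom of the scale. None of these had a limma adjusted p under 0.05 in a genotype comparison. Of Rpl10, Rpl10l, Rpl36a and Rpl36al no value is given, since no probe set carried the symbol alone.

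Rpl39, the small large-subunit protein that lines the exit tunnel of the ribosome, was the member whose TM175 arrays all lay above all NTG arrays. It had 240.5, 239.4 and 242.2 in TM175, against 198.1, 214.2 and 223.3 in NTG, while TM180 spanned 209.3 to 245.1. The log2 difference was 0.19 (SE 0.10) with a limma adjusted p of 0.443. Rpl39 was 1 of 49 members with such separation upward in TM175, where 8.42% of all probe sets showed it, and Rpl3l 1 of 49 downward, against 8.11%.

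Rpl13a, a large subunit protein also known for translational control when released from the ribosome, separated TM180 from NTG. It had 2559, 2287, 2403 and 2693 in TM180, against 2192, 1854 and 2211 in NTG, and TM175 arrays spanned 1915 to 2803. The lowest TM180 array, at 2287, lay just above the highest NTG array, at 2211. The log2 difference was 0.26 (SE 0.14) with a limma adjusted p of 0.665, or 0.234 with extract type in the model. Separation upward was seen in 1 of 49 members, against 5.98% of all probe sets, and downward in 1, Rpl3l, against 4.19%. The other probe sets of Rpl13a stood at 0.14, 0.28 and 0.24 for TM180 minus NTG.

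Members with a role outside the plain list of subunits gave no call. Rps6, the small subunit protein phosphorylated by S6 kinases, was at 0.13 in TM175 and 0.22 in TM180 relative to NTG, with limma adjusted p-values of 0.649 and 0.581. Rpsa, which is also known as a laminin receptor, was at 0.08 and 0.19. Rplp0 and Rplp2, which form the stalk of the large subunit that recruits elongation factors, were at -0.15 and -0.11 in TM175 and at 0.06 and -0.02 in TM180. Rps18 was at -0.15 in TM175 and -0.07 in TM180, and Rps29 at -0.06 and -0.07.

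Between the lines, most members lay a little higher in TM180 than in TM175, and none was called. The median log2 difference of TM180 minus TM175 was 0.10 over the 49 members, against -0.03 over all probe sets. The members' median was 0.01 after quantile normalization once more and -0.02 over unmarked probe sets, some of them dim. It was 0.06 without TM175 array 1, 0.04 without TM175 array 2 and 0.21 without TM175 array 3. Of the members 41 lay above 0 and 8 below, while 44.6% of all probe sets lay above 0. With limma 0 members were called in the genotype model, where 0.0% of all probe sets were, and 0 with extract type in the model, where 0.0265% were. At an unadjusted p under 0.05 there were 2 members, Rps4l and Rps27l, or 4.08%, against 13.3% of all probe sets. With array weights 8 members were called, where 10.3% of all probe sets were.

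Rps3a1, a small subunit protein, was the only member whose arrays did not overlap between the lines, with 1908, 1855, 1914 and 1995 in TM180 and 1766, 1750 and 1840 in TM175, where 6.22% of all probe sets separated upward and 7.37% downward. Its log2 difference was 0.10 (SE 0.08), with a limma adjusted p of 0.535. Rpl4 and Rpl6, both of the large subunit, were at 0.17 each, with limma adjusted p-values of 0.409 and 0.431, and their arrays overlapped between the lines.

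The medians are also given within each type of extract, and a difference between the types was not tested. Among individual extracts the median over the members was 0.19 for TM180 minus TM175, and between the pools, 1 array each, it was -0.05. For TM175 minus NTG the median was -0.14 among individual extracts and 0.05 between the pools. For TM180 minus NTG it was 0.07 and 0.04. Of individual extracts there were 2 TM175, 3 TM180 and 2 NTG arrays.

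**Figure D3:**
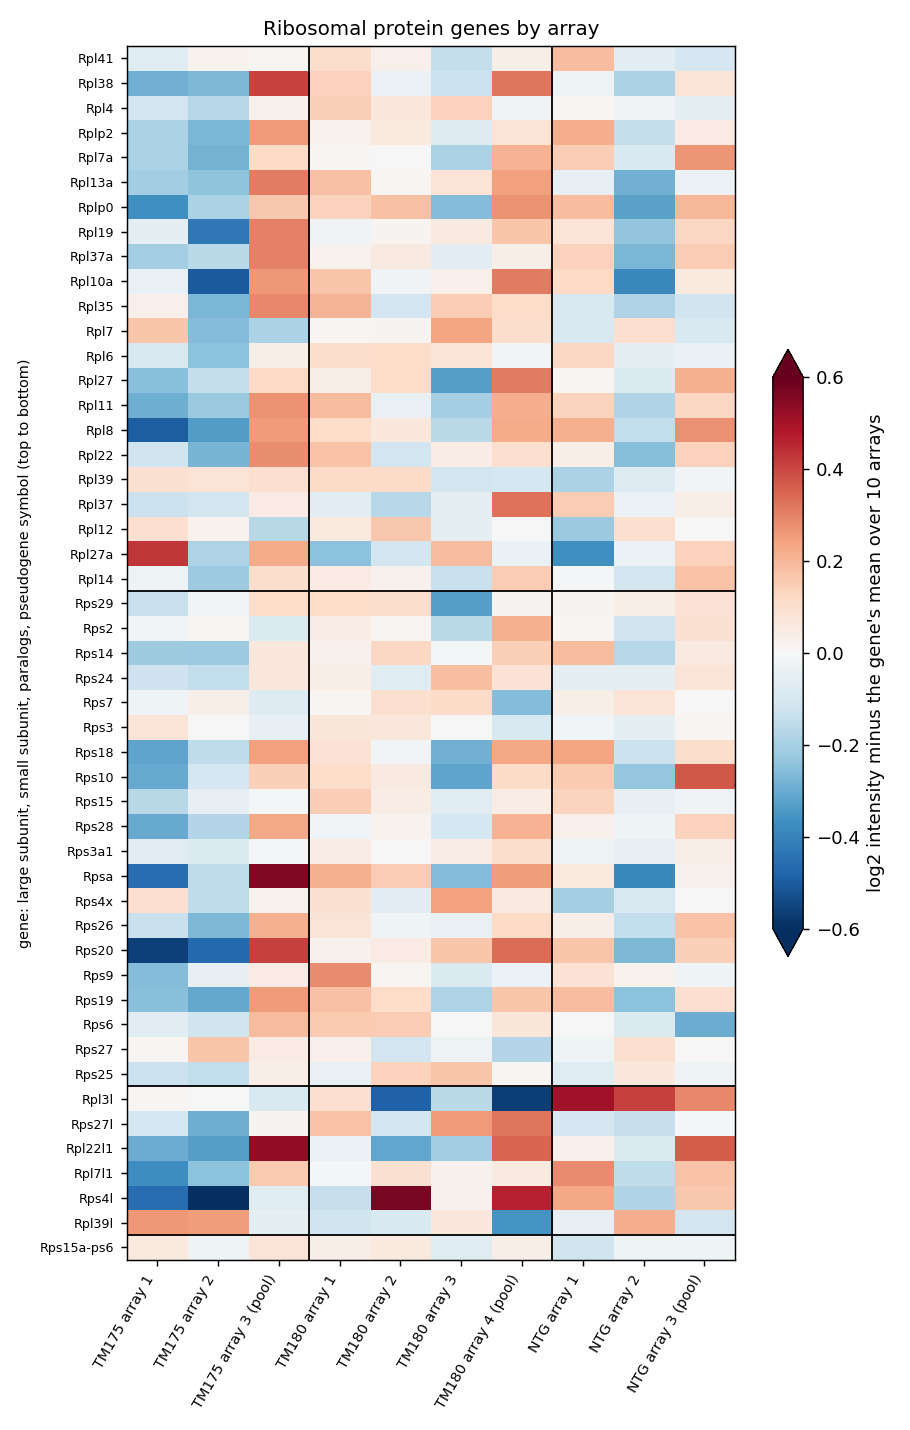
Log2 intensity of the 49 ribosomal protein genes in each array minus the mean of that gene over the 10 arrays, red above and blue below, with genes ordered by mean intensity within large subunit, small subunit, paralogs and the pseudogene symbol, and arrays by genotype. Most genes are below their mean in TM175 arrays 1 and 2 and above it in the TM175 pool, with median deviations of -0.13, -0.17 and 0.11, while Rpl3l is highest in the NTG arrays.

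Array by array, most members moved together, but shifts by array were not particular to them. The median deviation from each gene's own mean spanned 0.28 over the arrays for the members. It spanned 0.61 for 74 mitochondrial ribosomal protein genes and 0.36 for 39 proteasome subunit genes. The median deviation of the members from their own means was -0.13, -0.17 and 0.11 on the log2 scale in TM175, 0.07, 0.03, -0.06 and 0.11 in TM180, and 0.04, -0.09 and 0.06 in NTG. In TM175 arrays 1 and 2 only 11 and 8 of the 49 members lay above their own mean, and in the TM175 pool 39 did. NTG array 2 also had few, 9 of 49, while NTG array 1, likewise a single heart, had 32. The SD of the array medians within groups was 0.11, larger than the median differences between TM175 or TM180 and NTG.

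Over the 10 arrays, which share the normalization and the genotype and extract differences, 19 members correlated at 0.8 or more with the median of the other members, and the median correlation was 0.69. Rps19, a small subunit protein mutated in Diamond-Blackfan anaemia, was highest at 0.96, followed by Rps26 at 0.95, Rpl11 at 0.94, and Rpl38 and Rpl8 at 0.93. In 9 members the correlation was below 0. Rpl39l was lowest at -0.92, then Rps27 at -0.59 and Rps7 at -0.50, and Rpl3l was at -0.24.

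The narrowest range over the arrays among the members was that of Rps3. Rps3, a small subunit protein at the entry of the messenger RNA channel, ran from 2462 to 2777 across all 10 arrays, a range of 0.17 on the log2 scale. Rps3a1 had a range of 0.19, Rpl39 of 0.31 and Rps15 of 0.31. The range of Rps15a-ps6 was 0.21, but it read 6.1 to 7.0 in all arrays, near the bottom of the scale. The widest ranges were those of Rps4l, 1.17, Rpl3l, 1.07, Rpsa, 1.01, Rps20, 0.97, and Rpl22l1, 0.86. The median range was 0.54 for the members and 0.59 for all probe sets.

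Most members averaged higher in the 3 pooled extracts than in the 7 extracts of single hearts, and 7 of them passed the test. With genotype in the model the median log2 difference of pooled minus individual extracts was 0.18 over the 49 members. Over all probe sets it was -0.05. The members' median was 0.01 over unmarked probe sets, some of them dim, and 0.12 without TM175 array 3. Of the members 37 lay above 0 and 12 below, while 41.9% of all probe sets lay above 0. At an unadjusted p under 0.05 there were 22 members, or 44.9%, against 37.6% of all probe sets. With limma 8 members had an adjusted p under 0.05, 16.3% of the members against 22.2% of all probe sets, so the number of calls was not above the background. Of these 8, 7 were higher in the pools, where 10.0% of all probe sets were, and 1 was lower, where 12.2% were. The count was 20 without NTG array 1, and 1 to 4 without TM175 array 1, 2 or 3, TM180 array 4 or NTG array 2 or 3. With array weights it was 1, where 5.5% of all probe sets were called.

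Rpl22l1 had the largest rise. It had 335.2, 295.4 and 298.0 in the TM175, TM180 and NTG pools, against 188.5 and 184.6 in single TM175 hearts, 225.9, 186.8 and 200.4 in single TM180 hearts, and 236.7 and 218.0 in single NTG hearts. The pools lay above every single heart, and the log2 difference was 0.59 (SE 0.10) with a limma adjusted p of 0.00159.

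Rpl38, a large subunit protein known in mouse for selective translation of Hox messages, had 4343, 4102 and 3467 in the TM175, TM180 and NTG pools and 2689 to 3616 in single hearts. Its NTG pool lay below the highest single heart, so the extract types overlapped. The log2 difference was 0.40 (SE 0.10) with a limma adjusted p of 0.0162. Rps20 was at 0.45 (limma adjusted p = 0.0322), Rpl8 at 0.37 (0.0352), Rpl27 at 0.31 (0.0385), Rpl7a at 0.29 (0.0311) and Rps28 at 0.28 (0.0312). Of the 8 called, Rpl39l alone fell, by 0.28 on the log2 scale, with a limma adjusted p of 0.0357. Without TM175 array 3, a pool, Rps20 was at 0.23, Rpl8 at 0.23 and Rpl38 at 0.26, and of the 8 only Rpl22l1 was called. Rpl22l1 was called whichever array was left out.

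**Figure D4:**
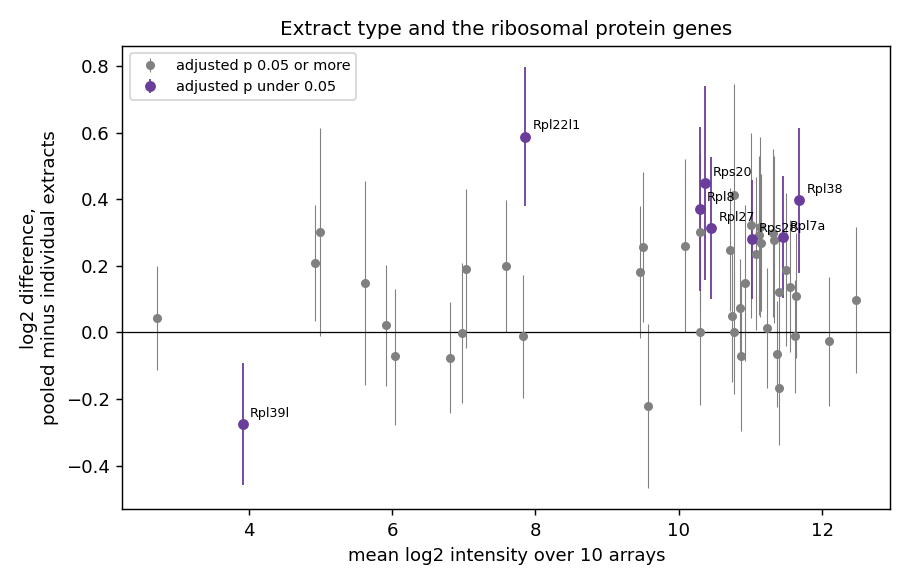
Log2 difference of pooled minus individual extracts, with its 95% interval from limma with genotype in the model, against the mean log2 intensity of each of the 49 ribosomal protein genes over 10 arrays; purple points have an adjusted p under 0.05. The labelled genes above 0 lie between 0.28 and 0.59, and Rpl39l at -0.28.

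On the median over the members the pool lay above the single hearts within each genotype, by most in TM175. The pool lay above every single heart of its own genotype for 38 of 49 members in TM175, for 23 in TM180 and for 23 in NTG. It lay below every single heart for 6, 7 and 8 members. With 2 single hearts in TM175, 3 in TM180 and 2 in NTG, such an order is common without any difference. The share over all probe sets was not counted. On the median the log2 difference of pool minus single hearts was 0.28 in TM175, 0.08 in TM180 and 0.12 in NTG, and the difference between genotypes was not tested. Of the 7 members called higher, 7 lay above all single hearts in TM175, 7 in TM180 and 6 in NTG. They were chosen by their difference in these same arrays, so these counts add no support.

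Of the RNA measures given here 18S ribosomal RNA moved with extract type, and the others overlapped between pools and single hearts. The 18S ribosomal RNA probe set at the 3′ end read 118, 98.4 and 141.4 in the TM175, TM180 and NTG pools, against 57.3 to 73.7 in single hearts. Ratios of 3′ to 5′ probe sets overlapped, at 0.957 to 1.272 in the pools and 1.06 to 1.363 in single hearts for Gapdh, and at 1.412 to 1.5 and 1.223 to 1.497 for actin. The 99th percentile of intensity was 2175 and 2351 in TM175 arrays 1 and 2, where the members were low, and 2422 to 2646 in the other arrays. Fibroblast markers summed to 6906 to 12868 in the pools and to 4602 to 11798 in single hearts. The part of these measures in the members' shift was not tested.

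Genes that work with the ribosomal proteins were counted in the same fits. Fau, which encodes a small subunit protein outside the symbol rule, was at -0.15 in TM175 and 0.07 in TM180. Of 14 translation factors with TOP messages 0 were called in a genotype comparison, with medians of -0.14 in TM175 and 0.07 in TM180. Eef1a1, the elongation factor that brings aminoacyl-tRNA to the ribosome, was at 0.18 and 0.25, with limma adjusted p-values of 0.427 and 0.354. Against single hearts, the pools were higher in 4 of these 14, Pabpc1, Eif3e, Eef1b2 and Nap1l1, at 0.69, 0.30, 0.36 and 0.29, where 10.0% of all probe sets were called higher.

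Of 30 other translation factors 0 were called in the genotype model. With extract type in the model Eif3m, a subunit of initiation factor 3, fell in TM175, by 0.72 on the log2 scale, with a limma adjusted p of 0.028, where 0.862% of all probe sets were called. In the genotype model its limma adjusted p was 0.131, and its means were 256 ± 23 in TM175 and 424 ± 68 in NTG (SD, n = 3 each). In TM180 Eif3m was also lower than in NTG, with a mean of 335 ± 16 (SD, n = 4). Its log2 difference there was -0.31 with extract type in the model (limma adjusted p = 0.141). Of 58 ribosome biogenesis genes and 13 genes of RNA polymerase I and its factors 0 were called by genotype, with medians of -0.05 and -0.04 in TM175 and 0.06 and 0.02 in TM180. Of 21 upstream regulators 0 were called in TM180 in the genotype model, and 2 were with extract type in the model, where 2.01% of all probe sets were. They were Sesn3, an inhibitor of mTORC1 signalling, at 0.46 (limma adjusted p = 0.0196, and 0.0552 in the genotype model), and Rps6ka3, a kinase of ribosomal protein S6, at 0.55 (0.0379, and 0.144 in the genotype model). Rps6ka3 was not particular to TM180: both lines averaged alike, at 183 (TM175) and 184 (TM180), above 127 (NTG). For TM175 minus NTG with extract type in the model it was at 0.535 (limma adjusted p = 0.063). Sesn3 was at 0.25 there (limma adjusted p = 0.162), so neither passed the threshold.

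The genes of the mitochondrial ribosome, which translates messages inside mitochondria, are given for comparison. Over 74 mitochondrial ribosomal protein genes the median log2 difference was -0.31 in TM175 and -0.17 in TM180 relative to NTG, with 0 called in either, and 2 and 7 genes above 0. Of the 74, 27 in TM175, or 36.5%, and 10 in TM180, or 13.5%, had all arrays below all NTG arrays. Of the 49 cytosolic members 1 did in each line, or 2.04%, and of all probe sets 8.11% in TM175 and 4.19% in TM180. Over 39 proteasome subunit genes, another abundant complex, the medians were -0.18 and -0.02. The comparisons with TM175 and TM180 share the same NTG arrays, and the difference between these gene groups was not tested.

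Many members are measured by probes that may bind more than 1 transcript, since processed copies of ribosomal protein genes are common in the mouse genome. The brightest probe set was marked x in 15 genes, a or s in 16 and unmarked in 18. The 52 other probe sets of the members had the same sign as the brightest in 31 for TM175 and 34 for TM180 against NTG, 39 for TM180 against TM175 and 39 for pooled against individual extracts. A further 102 probe sets carried several symbols of which 1 or more met the rule, and 28 such symbols, Rpl3, Rpl10 and Rplp1 among them, occurred only there. Their medians were -0.04 in TM175 and 0.04 in TM180 relative to NTG, 0.10 between TM180 and TM175, and 0.17 between pooled and individual extracts.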

How the data were processed

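The authors deposited probe set intensities on a linear scale from 10 arrays, made with RMA per the submitters' processing notes, version not given in the sources used here. RMA subtracts background, equalizes the distribution of probe values between arrays and summarises probes, so it largely removes a change shared by most genes. The deposited probe set values, as read here, were not fully equal at the bright end. Their 99th percentile ran from 2175 in TM175 array 1 to 2646 in NTG array 1. In that table a point stands before the last 3 digits of any intensity of 1000 or more. It was taken out from the digits and from the other arrays of the probe set in 7714 of 226900 values, and 241 probe sets, none of a member, could not be settled and stayed as written. The reading rule was adjusted once after a value was seen that it had left as written. In a check on made-up data of the same form, 12 of 222550 values were read wrongly. The made-up values were drawn from levels that the same rule had already read, without the unsettled probe sets. The check therefore cannot show a misreading of the deposited values themselves.

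Log2 intensities of 22626 probe sets, without 64 controls, went into limma 3.58.1 under R 4.3.3 (lmFit, then eBayes) over all 10 arrays, with 1 mean per genotype, two-sided tests and Benjamini-Hochberg adjustment over all probe sets, called under 0.05. Extract type was added as a covariate where stated, and the contrast of pooled with individual extracts kept genotype as a term. The arrays are separate extracts, and their number limits the precision. In simulations on 22626 probe sets the TM175 comparison called 20.9%, 73.1% and 97.0% of probe sets changed by 0.5, 1 and 2 on the log2 scale, and the TM180 comparison 26.9%, 73.1% and 97.0%.

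Genes came from the platform annotation, with 20380 probe sets of 1 symbol. Genes were named by rule: fixed pairs of paralogs and stalk, laminin receptor and housekeeping members; members called; the 5 smallest p-values, members without overlap and the 5 widest and narrowest ranges; and of other lists the smallest p-values. The remaining genes were named after their values were seen. Members and lists were chosen with earlier results of these data known. A planned difference of Rpl3l minus Rpl3 was not computed, since no probe set carried Rpl3 alone, and Rpl3l itself was tested by permutation instead. The alternatives changed the covariates, the replicate block, the arrays, the normalization, the probe set of a gene, the spread and the threshold. Python 3.11.15, pandas 2.3.3, scipy 1.17.1 and matplotlib 3.10.9 served for the other steps.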

Additional observations from a re-analysis of the deposited data

Results flagged for a closer look

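Rps10, a small subunit protein, had 1 array far from the others in TM180: 2048 in array 3 beside 2754, 2641 and 2760, a gap of 0.852 of the range of the group. It was the only one of 49 members that stood out in this way in TM180, the one genotype with 4 arrays, and chance flags about 1 in 20 such groups. Over all members TM180 array 3 had a median deviation of -0.06.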

How the results depend on the processing

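Values are log2 differences or counts of ribosomal protein genes called. The call count for TM175 against NTG was 0 in all fits but the one with array weights (10). For TM180 against NTG it was 0, and 1 with extract type in the model, with array weights (1) and without TM180 array 1, a range of 0 to 1 when 1 array was left out. For TM180 against TM175 it was 0, 8 with array weights, and 0 to 1 when 1 array was left out with extract type in the model, an alternative added after the data were seen. For pooled against individual extracts the count of 8 became 5 with quantile normalization once more, 5 with the values as written, 3 with unmarked probe sets only, 1 with array weights, 1 at an adjusted p under 0.01, and 1 to 20 when 1 array was left out. The median for TM175 against NTG became 0.052 in pooled extracts only, 0.046 with quantile normalization once more and 0.082 with unmarked probe sets only, and ran from -0.17 to -0.02 when 1 array was left out. For TM180 against TM175 it became -0.05 in pooled extracts only and -0.024 with unmarked probe sets only, and ran from 0.041 to 0.209 when 1 array was left out. For pooled against individual extracts it became 0.29 with the replicate block and 0.013 with unmarked probe sets only. Replicate numbers are shared between genotypes. Same-numbered arrays correlated at -0.53 to 0.71 in their deviations over 9 pairs, and arrays of different number at -0.72 to 0.81 over 24 pairs. Both ranges mix pools with single hearts, so they cannot show whether a number stands for a shared batch. With the replicate block 0 members were called in each of the 4 comparisons, where pooling and number largely coincide. Rpl3l reversed with the values as written, to 6.22 in TM175 and 5.97 in TM180 against NTG, as did Rpl8, to -2.82, and Rps20, to -2.74, between pooled and individual extracts, since values of 1000 or more then read as small decimals. In the other settings run Rpl3l kept its sign. Of the members called between pooled and individual extracts, the call was lost with the sign kept in 1 setting for Rpl22l1, 4 for Rpl38, 7 for Rps28, 8 each for Rpl7a and Rps20, 9 for Rpl8 and 11 each for Rpl27 and Rpl39l, settings without 1 array included. The cause of these changes was not tested. Rpl3l minus Rpl3 could not be computed.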
